A study of Mus musculus with 10 samples.

Results

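Platelets are cell fragments shed by megakaryocytes, and they carry adhesion receptors on their surface and stores of proteins in their alpha and dense granules. A set of 10 such genes was chosen by name from the 55487 annotated genes of the count tables and followed from the mesoderm stage to blood progenitors. They encode the subunits of the GPIb-IX-V receptor (Gp1ba, Gp1bb, Gp9 and Gp5), the collagen receptor glycoprotein VI (Gp6), a receptor kept in alpha granules (Treml1), the alpha granule chemokines Pf4 and Ppbp, von Willebrand factor (Vwf), and Rab27b, a GTPase of granule secretion. All 10 were found by their Ensembl identifiers.

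Nuclear RNA from HM-1 cells, a line of mouse ES cells, was depleted of rRNA and sequenced with a stranded protocol. All libraries come from this 1 line, differentiated in serum, and the labels name no added mutation or transgene in any group. ES cells were taken undifferentiated in the presence of LIF. HB cells (haemangioblasts) were collected by magnetic sorting for FLK1 from embryoid bodies after 3 d. HE1, HE2 and HP cells were sorted after a further 2.5 d of blast culture with VEGF, IL-6 and conditioned medium. HE1 and HE2 are haemogenic endothelium, both KIT+ TIE2+, and differ in CD41, which is absent from HE1 and present on HE2. HP cells (haematopoietic progenitors) are KIT+ TIE2− CD41+. CD41 is the integrin subunit encoded by Itga2b, itself a megakaryocyte and platelet gene, so the gate bears on its level. None of the 10 genes encodes a sort antigen, but HE1 and HE2 are parted by a protein of this lineage. The gate may therefore also bear on the members and on other genes of the lineage, which was not tested. Each stage has 2 libraries (n = 2), with between 24920434 and 58782055 counts on genes.

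Levels are given as CPM, the counts scaled to a common library size with the TMM method, in the order replicate 1 and replicate 2. A change was called when edgeR's quasi-likelihood test, adjusted by the Benjamini-Hochberg method over 22596 tested genes, gave an adjusted p-value under 0.05 and the change was at least 2-fold. A total of 9 members passed the filter on low counts and were tested. Ppbp did not. Pf4, Gp9, Gp6 and Treml1 had 0 or 1 count in each HB library and passed the filter only through their counts in HE2 and HP. Their changes and calls below are therefore descriptions. The number of members called describes the members and is not a test of the set. In a sorted population, more cells that contain a transcript and more of it per cell cannot be told apart. The study describes the replicates of a stage as biologically independent, and the p-values measure the spread between them.

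The libraries were checked for markers of the cells that each gate could hold. The sum of 10 megakaryocyte markers was 60.8 and 49.1 CPM in HB, 340 and 203 CPM in HE1, 1654 and 2002 CPM in HE2, and 2127 and 1585 CPM in HP. Most of it came from Itgb3 and the sort antigen Itga2b, which made up 1573 and 400 CPM in HP replicate 1. In HP, all 10 of these markers, of which 3 (Gp9, Pf4 and Ppbp) are also members, had over 3 counts in both libraries. The sum of 12 erythroid markers was 23.8 and 22.9 CPM in the HB libraries, 577 and 286 CPM in HE1, 2313 and 1749 CPM in HE2, and 4971 and 2542 CPM in HP, and all 12 were detected from HE1 on. Its part in the members' onset was not tested. Macrophage markers summed to 67.3 and 67.9 CPM in HP over 12 genes, with C1qa at 0, and neutrophil and mast cell markers to 304 and 151 CPM over 8 genes. Of the latter, Mpo (247 and 111 CPM) and Gata2 (48.8 and 35.9 CPM), which is also a megakaryocyte factor, made up most, only 4 of the 8 had over 3 counts in both libraries, and Cma1 was at 0. HE1 replicate 2 stood apart from replicate 1, with more of the pluripotency markers (115 against 47.4 CPM over 7 genes) and of the cardiac and mesenchymal markers (1372 against 641 CPM over 8 genes). The part of these differences in the results below was not tested beyond leaving out each library in turn.

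The receptor for von Willebrand factor is built from 4 members, of which Gp5 was first called above HB in HE1, Gp1ba and Gp9 in HE2, and Gp1bb in HP. The differences between members were not tested, and that of Gp1ba depended on the settings. Gp1ba, the subunit that binds the ligand, lies at chr11:70639122-70642036 on the plus strand of mm10. It had 0.0177 and 0 CPM in ES cells, 1.45 and 1.21 CPM in HB, 3.83 and 1.82 CPM in HE1, 11.7 and 14.3 CPM in HE2, and 13.9 and 11.4 CPM in HP. It was thus already above the ES libraries in HB, and the HE1 and HE2 libraries did not overlap. From ES to HB it rose from 1 count to 87 counts in all, a ratio of 121 (95% counting interval 21.1 to 4823, adjusted p = 6.07e-05, edgeR). From HB to HE1 the log2 fold change was 1.07 ± 0.39 and missed the threshold (adjusted p = 0.0577), but it was called with DESeq2 (adjusted p = 0.0309), with total counts (0.0448), without the filter on low counts (0.0271) and without HE1 replicate 2 (0.00998). From HE1 to HE2 it was 2.21 ± 0.38 (SE, adjusted p = 0.0082, and 0.0502 without HE2 replicate 2), and between HE2 and HP it was −0.04 ± 0.35 (adjusted p = 1).

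Gp5, the subunit of this receptor that thrombin cleaves, lies at chr16:30307685-30310779 on the minus strand. Its level was 0.390 and 0.172 CPM in ES cells, 0.694 and 0.31 CPM in HB, 2.61 and 3.60 CPM in HE1, 5.39 and 6.83 CPM in HE2, and 12.8 and 7.95 CPM in HP. Each stage from HE1 on lay above the one before in both libraries. The change was called from HB to HE1, with a log2 fold change of 2.64 ± 0.50 (adjusted p = 0.00294, edgeR). The next steps, 0.97 ± 0.43 into HE2 (adjusted p = 0.136) and 0.77 ± 0.42 into HP (adjusted p = 0.781), were not.

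Gp9, the small subunit at chr6:87778072-87779768 on the plus strand, had 0 counts in all 4 libraries of ES and HB. In HE1 it had 4 and 0 counts, in HE2 22 and 37 counts (0.670 and 1.17 CPM), and in HP 111 and 35 counts (2.53 and 1.11 CPM). HE2 and HP overlapped, and HE1 lay below both. With the floor of 3 counts per library in place of the 0 counts in HB, Gp9 was at least 10.0-fold higher in HE2 and at least 19.8-fold higher in HP. The reported fit called both, and these folds are descriptions, since Gp9 passed the filter only through HE2 and HP. From HE1 to HE2 the ratio was 12.4 with a 95% counting interval of 4.59 to 47.0. The reported edgeR fit, which takes the spread between libraries into account, did not call this step. It was called with limma-voom, with DESeq2, without the filter on low counts and without HE1 replicate 1.

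Gp1bb, the subunit linked to Gp1ba by disulphide bonds, was first called above HB in HP. Its single exon block at chr16:18620317-18622403 on the minus strand shares 1902 bases, or 91.1%, with exons of Sept5 and 867 bases with Gm49601 on the same strand. Read pairs there were counted on each gene, so most of its count cannot be told apart from theirs. Gp1bb had 0.195 and 0.516 CPM in ES cells, 0.562 and 1.38 CPM in HB, 0.883 and 1.45 CPM in HE1, 1.83 and 1.56 CPM in HE2, and 5.57 and 2.64 CPM in HP. The libraries overlapped between HB and HE1, those of HE2 lay just above both, and those of HP lay above HE2. From HB to HP the log2 fold change was 2.07 ± 0.60 (adjusted p = 0.0239, edgeR), and from HE1 to HP 1.80 ± 0.60 (adjusted p = 0.0497). The latter was called under 6 of 16 alternatives, among them 2 of the 10 that left out a library, and its adjusted p was 0.0673 with total counts and 0.321 without HP replicate 1. Sept5 had 4.30 and 4.99 CPM in HB and 6.41 and 3.75 CPM in HP, which overlap, and Gm49601 had 3.90 and 3.16 CPM and 5.75 and 3.18 CPM. These levels include the shared read pairs, so they are no separate comparison for Gp1bb. Without HB replicate 1 or without HP replicate 1 the HB to HP change of Gp1bb was no longer called (adjusted p = 0.175 and 0.174).

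**Figure D1:**
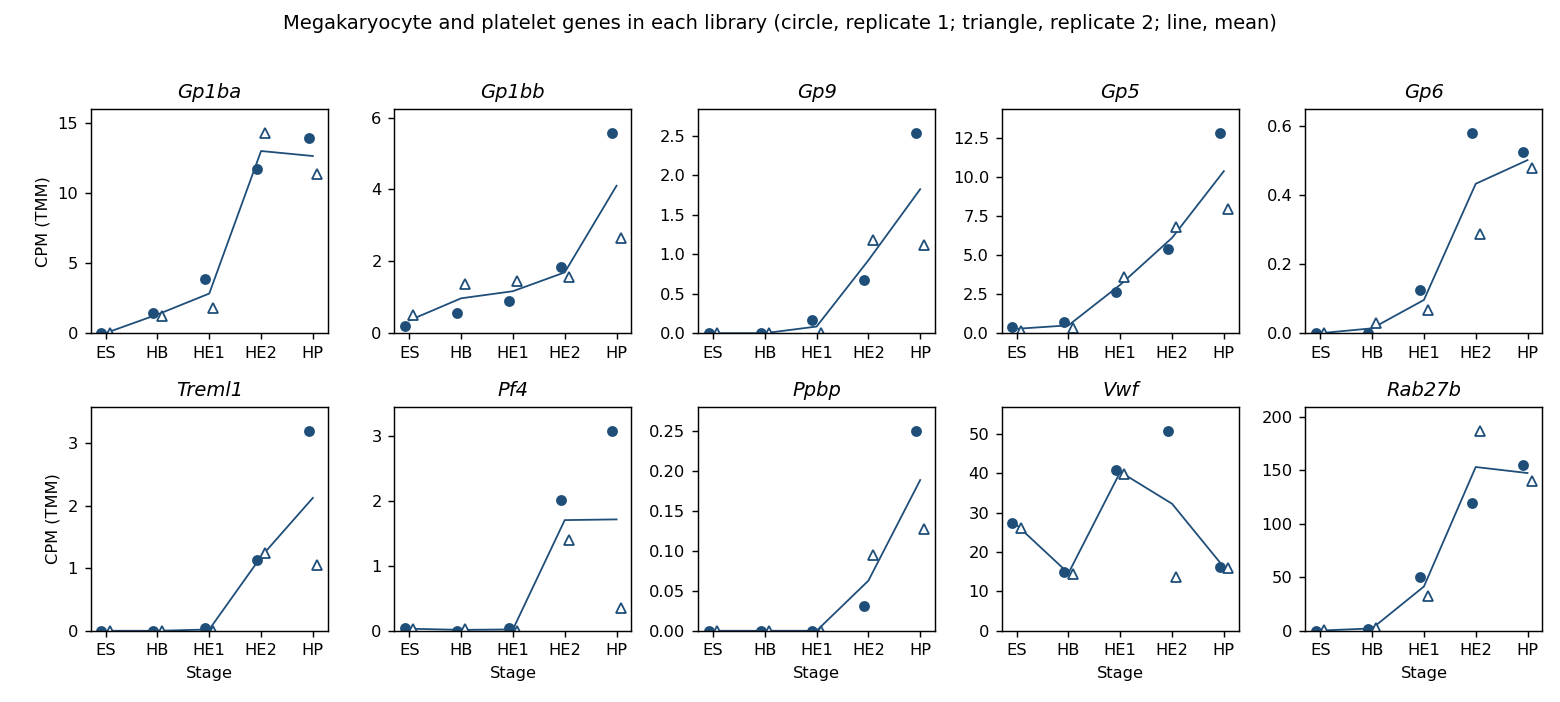
Each panel plots 1 member, with the stage on the x axis and CPM on TMM-scaled library sizes on the y axis, which starts at 0 and has its own range in each panel. Filled circles are replicate 1, open triangles replicate 2, and the line joins the means. Rab27b and Gp5 were above HB in HE1, Pf4, Treml1 and Gp9 first stood clear of 0 in HE2, and Vwf was highest in the HE1 libraries and in HE2 replicate 1.

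Promoters of Gp1ba, Gp9 and Gp5, which encode subunits of 1 receptor, and of Pf4, which is often taken as the marker gene of the lineage, are shown because GATA and ETS factors are known regulators of megakaryocyte genes. Each stretch is the 110 bases before the RefSeq start on the strand of the gene (RefSeq, GRCm38.p6), with matches to the GATA motif GATAA and the ETS motif GGAAG on either strand in capitals.
Gp1ba, chr11:70639012-70639121, plus strand: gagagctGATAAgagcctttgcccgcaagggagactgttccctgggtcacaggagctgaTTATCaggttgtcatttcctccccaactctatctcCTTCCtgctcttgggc
Gp9, chr6:87777960-87778069, plus strand: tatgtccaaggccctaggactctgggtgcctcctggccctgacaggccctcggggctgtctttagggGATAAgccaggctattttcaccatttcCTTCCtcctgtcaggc
Gp5, chr16:30310782-30310891, minus strand: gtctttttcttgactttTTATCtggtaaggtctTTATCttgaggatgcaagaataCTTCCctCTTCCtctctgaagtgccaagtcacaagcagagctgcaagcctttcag
Pf4, chr5:90772325-90772434, plus strand: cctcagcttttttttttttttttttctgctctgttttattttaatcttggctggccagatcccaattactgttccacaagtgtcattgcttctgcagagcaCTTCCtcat

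A RefSeq window from 250 bases before to 50 bases after the start was held for 8 members, and not for Vwf and Rab27b. GATAA was present in 5 of the 8 windows and in 25.4% of all 32851 windows of this length. GGAAG was present in all 8 and in 71.4% of all windows, and both motifs in 5 of the 8 and in 17.2% of all windows. The RUNX motif TGTGGT was found for 1 member (Gp9; 16.8% of all windows) and the NF-E2 and AP-1 motif TGANTCA for 2 members (Ppbp and Gp1bb; 7.81% of all windows). The GATAA of Pf4 lies 37 bases after the start, outside the stretch shown. The 110 bases before the start of Gp6 and of Treml1, not shown, held neither GATAA nor GGAAG. Both strands were searched for each motif, and none of these motifs is part of another. A match is a run of letters and does not show that a factor was bound.

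Gp6 and Treml1 encode receptors that act after adhesion. Gp6, the collagen receptor at chr7:4363965-4397744 on the minus strand, stayed low. ES cells had 0 counts of it, the HB libraries 0 and 1 counts, the HE1 libraries 3 and 2 counts, the HE2 libraries 19 and 9 counts, and the HP libraries 23 and 15 counts, or 0.525 and 0.477 CPM. HE2 and HP overlapped, and both lay above HE1. Against HB, the ratio was 28.6 in HE2 (95% counting interval 4.73 to 1170) and 33.2 in HP (5.61 to 1345). Both are descriptions, since Gp6 passed the filter only through HE2 and HP. The reported fit called both changes, and without HB replicate 1 neither was called.

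Treml1, at chr17:48359916-48367176 on the plus strand, encodes a receptor that reaches the platelet surface when alpha granules are released. It had 0 counts in ES and HB and 1 and 0 counts in HE1, followed by 37 and 39 counts (1.13 and 1.24 CPM) in HE2 and 140 and 33 counts (3.19 and 1.05 CPM) in HP. Its HE2 libraries were nearly equal, whereas the HP libraries differed 3.04-fold (95% counting interval 2.07 to 4.59) and spanned them. Treml1 was 63.9 times higher in HE2 than in HE1 (95% counting interval 11.1 to 2555), and at least 12.9-fold higher than in HB. Both are descriptions, since Treml1 passed the filter only through HE2 and HP. The reported fit called both changes, and the HE1 to HE2 call was lost without HE1 replicate 2 or HE2 replicate 2.

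The chemokine genes Pf4 and Ppbp are neighbours on chromosome 5, both on the plus strand, at chr5:90772435-90773383 and chr5:90768518-90770063. Pf4 had 2 and 1 counts in ES cells, 0 and 1 in HB, and 1 and 0 in HE1. It then had 66 and 44 counts (2.01 and 1.40 CPM) in HE2 and 135 and 11 counts (3.08 and 0.35 CPM) in HP. Pf4 was therefore at the floor until HE1 and above it in every HE2 and HP library, and its HP libraries lay on both sides of HE2. They differed 8.81-fold, with a 95% counting interval of 4.77 to 18.1. From HE1 to HE2 the ratio was 92.4 (16.3 to 3684), a description, since Pf4 passed the filter only through HE2 and HP. The reported fit called this change, and the call was lost without HE1 replicate 2 or HE2 replicate 2. From HE2 to HP the log2 fold change was 0.03 ± 0.80 (adjusted p = 1), and it ran from −2.27 without HP replicate 1 to 0.85 without HP replicate 2. The sum of the megakaryocyte markers was also lower in HP replicate 2 than in replicate 1, as given above, but by less.

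Ppbp had 0 counts in the 6 libraries of ES, HB and HE1, 1 and 3 counts in HE2, and 11 and 4 in HP. Only in HP were both libraries above the floor, at 0.251 and 0.127 CPM, and Ppbp was at least 2.06-fold higher there than in HB. The ratio of HP to HE2 was 3.20 with a 95% counting interval of 1.02 to 13.3, which covers counting error only. Its order of onset relative to Pf4 was not detectable at this depth in HE2, where 3 counts correspond to 0.0914 and 0.0952 CPM.

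Rab27b, a small GTPase needed for the packaging and release of dense granules, had the highest level of the members in HE2 and HP. It is on chromosome 18, on the minus strand. Its level was 0.142 and 0.287 CPM in ES cells, 2.05 and 2.39 CPM in HB, 49.9 and 32.9 CPM in HE1, 119 and 187 CPM in HE2, and 155 and 140 CPM in HP. No library overlapped with the stage before until HP, which lay within the range of HE2. The log2 fold change was 3.45 ± 0.42 from ES to HB (adjusted p = 0.000118, edgeR), 4.21 ± 0.30 from HB to HE1 (adjusted p = 1.27e-05), and 1.89 ± 0.26 from HE1 to HE2 (adjusted p = 0.00274). From HE2 to HP it was −0.05 ± 0.25 (adjusted p = 1). Rab27b was called from HB to HE1 and from HE1 to HE2 with each library left out in turn.

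Vwf, at chr6:125546774-125686679 on the plus strand, encodes the ligand of the receptor above. Endothelial cells also make it and store it in Weibel-Palade bodies. It had 27.5 and 26.2 CPM in ES cells, 14.9 and 14.3 CPM in HB, 40.8 and 39.9 CPM in HE1, 50.8 and 13.7 CPM in HE2, and 16.2 and 16.0 CPM in HP. Vwf was alone among the members in being present at over 9 CPM in ES cells and HB and in being called lower in HP than in HE1. The pairs of libraries were close in 4 stages, but in HE2 they differed 3.70-fold (95% counting interval 3.33 to 4.13), with replicate 2 at the level of HB and HP.

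The rise of Vwf from HB to HE1 was 1.46 ± 0.43 on the log2 scale (adjusted p = 0.0263, edgeR), and it was not called without any 1 of the 4 HB and HE1 libraries (adjusted p between 0.0693 and 0.135). From HE1 to HP the log2 fold change was −1.32 ± 0.43 (adjusted p = 0.0468). This fall was called under 6 of 16 alternatives. It was not called with limma-voom (adjusted p = 0.0504), with total counts (0.0582) or without any 1 of the 8 ES, HB, HE1 and HP libraries (0.0592 to 0.191). Neither the step from HE1 to HE2, with −0.32 ± 0.42 (adjusted p = 0.594), nor that from HE2 to HP, with means of 32.3 and 16.1 CPM (adjusted p = 0.582), was called. With each library left out the log2 fold changes ran from −1.56 to 0.33 and from −1.65 to 0.23, with the ends given by leaving out 1 of the 2 HE2 libraries, and each was called at its lower end, without HE2 replicate 1 and without HE2 replicate 2, respectively. The sum of 12 endothelial markers, which include the sort antigens TIE2 (Tek) and FLK1 (Kdr), was 1510 and 1782 CPM in HB, 6184 and 3969 CPM in HE1, 3965 and 2340 CPM in HE2, and 1184 and 1227 CPM in HP, and none of the 12 was at 0 in any stage. On average this sum, like Vwf, rose from HB to HE1 and was lower in HE2 and in HP. In HE2 both were lower in replicate 2. HE2 replicate 1 lay above both HE1 libraries in Vwf but above neither in the sum. HE2 replicate 2 lay below both HP libraries in Vwf but above both in the sum. The sum also did not follow Vwf in ES cells, where it was 287 and 298 CPM, or within HE1, where the libraries differed in the sum and not in Vwf. Its part in the result was not tested.

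**Figure D2:**
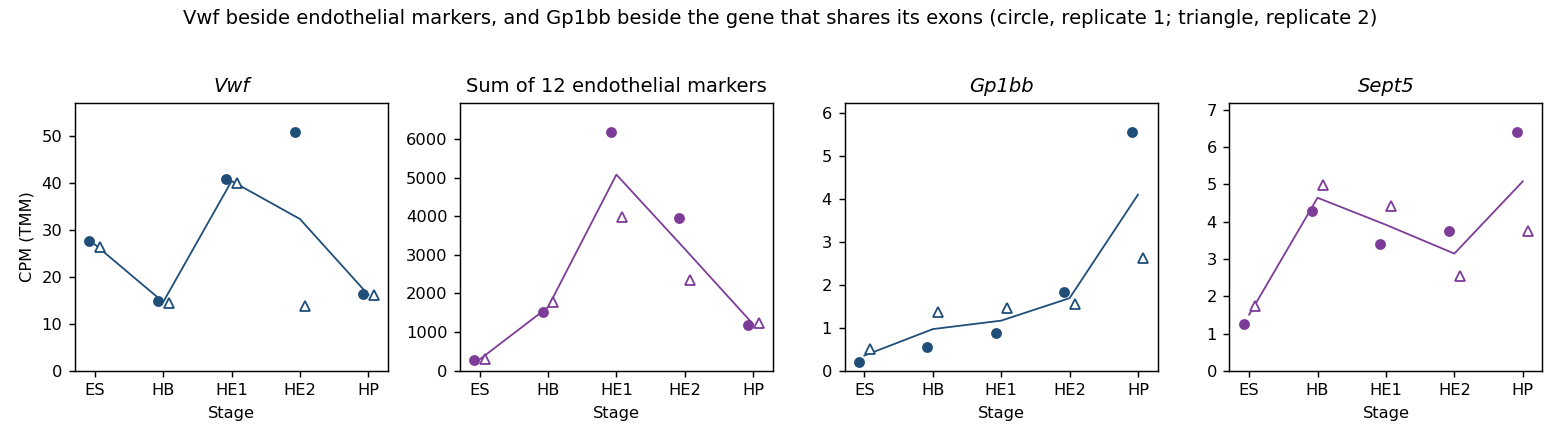
The x axes give the stage and the y axes CPM on TMM-scaled library sizes, with filled circles for replicate 1, open triangles for replicate 2 and a line through the means. Vwf and the summed level of 12 endothelial markers were both highest on average in HE1 and lower in HP, and Gp1bb rose in HP while Sept5, whose exons cover 91.1% of the exon bases of Gp1bb, had overlapping libraries in HB and HP. Read pairs in the shared bases were counted on both genes.

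The members were then counted at each step, beside the share of all tested genes called in the same direction. From ES to HB, 2 of the 9 tested members (Gp1ba and Rab27b) were higher and 0 lower, against 11.5% and 17.3% of all tested genes. From HB to HE1, 3 were higher (Vwf, Gp5 and Rab27b) and 0 lower, against 12.7% and 8.19%. From HE1 to HE2, 4 were higher (Pf4, Gp1ba, Treml1 and Rab27b) and 0 lower, against 3.26% and 5.39%. The count for the last of these was 2 without HE1 replicate 2 (Gp1ba and Rab27b) and 1 without HE2 replicate 2 (Rab27b). The genes called over the whole table also became fewer, from 737 higher and 1217 lower to 352 and 226 without HE1 replicate 2, and to 314 and 106 without HE2 replicate 2.

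From HE2 to HP, no member was called in either direction, and neither was any other gene in the edgeR fit reported here (0.00% higher and 0.00% lower). Other edgeR fits did call genes, with 145 higher and 389 lower when no genes were filtered, 19 and 35 when the 4 HE2 and HP libraries were fitted alone, 22 and 32 without HE1 replicate 1, 22 and 33 without HE1 replicate 2, and 47 and 471 without HE2 replicate 2. Before adjustment, 670 genes had a p-value under 0.05 on the higher side and 1113 on the lower side, among them 1 member, Vwf, on the lower side. With limma-voom 35 genes were higher and 27 lower, and with DESeq2 108 and 193, none of them a member. Vwf was among the 389 genes lower with no filter and the 471 lower without HE2 replicate 2. Both HP libraries were above both HE2 libraries in 2 of the 9 tested members, Gp5 and Gp1bb, against 15.8% of all tested genes, and also in Ppbp, which was not tested.

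Counted from HB, 7 members were higher in HE2 (9.76% of all tested genes) and 8 in HP (10.1%), with 0 lower in both (11.0% and 11.6%). These comparisons share the HB libraries. The member called in HP but not in HE2 was Gp1bb, and Vwf was called in neither with the reported fit. Vwf was higher from HB to HE2 with DESeq2 (adjusted p = 0.0274), when no genes were filtered (6.61e-06) and without HE2 replicate 2 (7.02e-05), and without HE2 replicate 1 its log2 fold change was −0.09. From HE1 to HP, 7 were higher (5.35%) and 1, Vwf, was lower (11.2%). Here the count of higher members was 4 without HE1 replicate 2 and 3 without HP replicate 1, and that of lower members was 0 under the alternatives given above for Vwf.

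**Figure D3:**
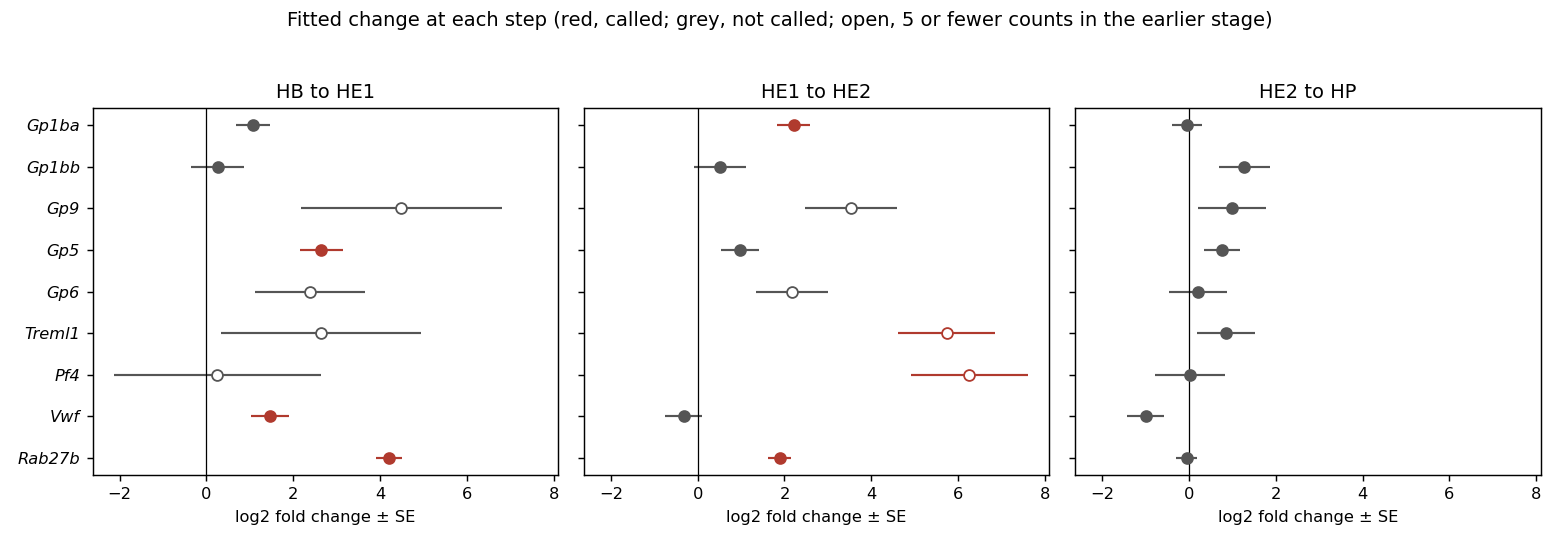
The x axis of each panel is the fitted log2 fold change of the later over the earlier stage with its SE, and the rows are the 9 tested members. Red points were called, grey points were not, and open points mark members with 5 or fewer counts in the earlier stage, whose fitted size is no bound. Red points are found in the first 2 panels, 3 from HB to HE1 and 4 from HE1 to HE2, and none from HE2 to HP.

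The onset of each member depended on how it was defined. By the first stage called above HB, 3 members appeared in HE1 (Vwf, Gp5 and Rab27b), 5 in HE2 (Pf4, Gp1ba, Gp9, Gp6 and Treml1) and 1 in HP (Gp1bb). Of these, Pf4, Gp9, Gp6 and Treml1 passed the filter only through HE2 and HP, so their place is a description. Gp1ba would move to HE1 under the 4 settings given above that called it there. By the level of 9 CPM that the study takes as expressed, Vwf was expressed in every stage, Rab27b from HE1, Gp1ba from HE2 and Gp5 from HP, and the other 6 stayed below it in every stage. A lower limit of a mean of 1 CPM would place Gp1ba and Rab27b in HB, Gp5 and Gp1bb in HE1, Pf4 and Treml1 in HE2 and Gp9 in HP, and leave out Gp6 and Ppbp. Neither limit takes account of exon length, which runs from 721 bases for Pf4 to 16064 bases for Vwf.

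Per kb of exon, the level in HP fell from 14.5 and 13.1 CPM per kb for Rab27b to 0.0889 and 0.0808 CPM per kb for Gp6. Gp5 (5.84 and 3.62 CPM per kb), Gp1ba (5.11 and 4.18), Pf4 (4.27 and 0.485), Gp9 (2.87 and 1.26), Gp1bb (2.67 and 1.26), Treml1 (2.28 and 0.748) and Vwf (1.01 and 0.997) came in between, and each overlapped with the next. Rab27b lay above all of them, and Ppbp (0.232 and 0.117) lay below Vwf and above Gp6. Without the length of the exons, Vwf would rank 2 in place of 8, as its exons add up to 16064 bases.

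**Figure D4:**
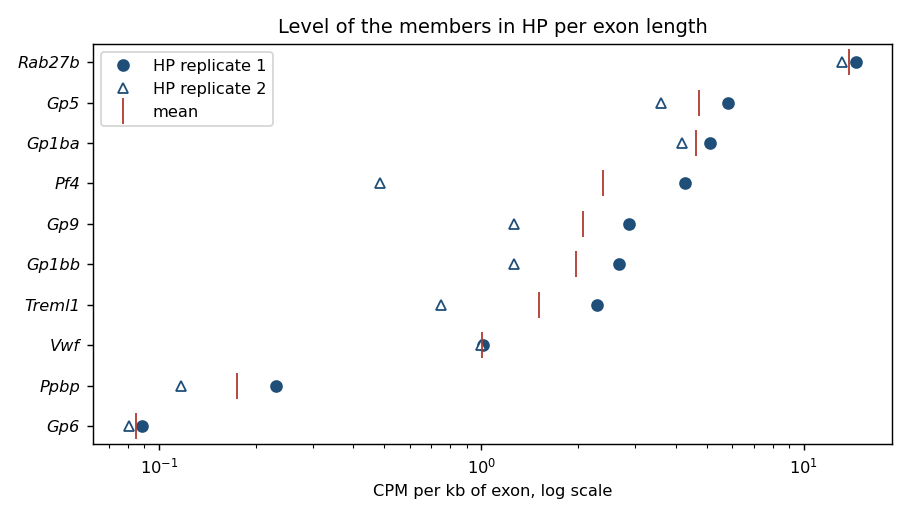
The x axis is the level in HP in CPM per kb of exon on a log scale and the rows are the 10 members, with a filled circle for replicate 1, an open triangle for replicate 2 and a bar for the mean. Rab27b stands above the rest at 14.5 and 13.1, and the libraries of Pf4 are the farthest apart, at 4.27 and 0.485.

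The other genes of the lineage were taken from 5 lists, chosen with earlier results of these data known. Some of their genes passed the filter only through HE2 and HP, so the counts and medians describe each list and are not a test of it. Of all tested genes, 12.7% rose and 8.19% fell into HE1, and 3.26% rose and 5.39% fell into HE2, with median log2 fold changes of 0.04 and −0.07. The shares into HE2 are those of the reported fit and were lower without HE1 or HE2 replicate 2, as given above. Of 19 megakaryocyte transcription factors, all tested, 7 rose and 0 fell at the step into HE1, and 7 rose and 1 fell at the step into HE2. Their median log2 fold change was 0.58 and 0.29 at these steps. Nfe2, a factor required for platelet release, had 4.73 and 4.45 CPM in HB, 10.0 and 3.83 CPM in HE1, 63.5 and 126 CPM in HE2, and 194 and 127 CPM in HP. Gata1, the GATA factor of erythroid cells and megakaryocytes, had 2.51 and 2.65 CPM, 5.55 and 2.41 CPM, 24.5 and 38.5 CPM, and 75.8 and 65.7 CPM in the same order. Both rose at the step into HE2, by 3.79 ± 0.45 (adjusted p = 0.00133, edgeR) and 3.00 ± 0.36 (adjusted p = 0.00138) on the log2 scale, as did Gfi1b, a repressor of both lineages, with 3.44 ± 0.37 (adjusted p = 0.000739). Fli1, an ETS factor, had instead risen from HB to HE1 by 1.45 ± 0.22 (adjusted p = 0.000966), with 0.05 ± 0.22 into HE2 (adjusted p = 0.891). Meis1, a homeobox factor, rose at both steps, by 3.43 ± 0.34 (adjusted p = 6.85e-05) and 1.36 ± 0.30 (adjusted p = 0.0212).

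Among 24 other surface receptors and adhesion molecules of platelets, all tested, 15 rose into HE1 and 10 rose into HE2, with 0 falling at both steps, against 12.7% and 3.26% of all tested genes rising. Their median log2 fold change was 1.95 and 1.59, or 1.81 and 1.18 with genes at 0 counts set to their bound. Itgb3, which pairs with CD41 in the fibrinogen receptor, had 11.7 and 13.2 CPM in HB, 97.0 and 68.5 CPM in HE1, 1065 and 1405 CPM in HE2, and 1573 and 1139 CPM in HP. Itgb3 was not itself a sort antigen, but the gate on its partner CD41 may bear on its level, which was not tested. It rose by 2.74 ± 0.24 (adjusted p = 3.71e-05, edgeR) and then by 3.90 ± 0.25 (adjusted p = 0.000165) on the log2 scale. Itga2b, which the gate selects, had 227 and 127 CPM in the CD41− HE1 cells and 505 and 469 CPM in HE2. P2ry12, the ADP receptor, and Cd84, an adhesion receptor, had 0 counts in HB and were at least 6.79-fold and 6.02-fold higher in HP, with 46 and 41 counts over both libraries. Like several members, they passed the filter only through the later stages, so these folds and the counts that include them are descriptions.

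Of 23 other genes for granule cargo and granule biogenesis, 10 rose and 0 fell into HE1 (12.7% and 8.19% of all tested genes), and 8 rose and 2 fell into HE2 (3.26% and 5.39%). The medians of the log2 fold change were 1.11 and 0.66. F13a1, the coagulation factor XIII A chain, had 1.22 and 0.198 CPM in HE1, 18.2 and 27.6 CPM in HE2, and 30.2 and 24.7 CPM in HP. Its log2 fold change into HE2 was 5.07 ± 0.55, and that of Mmrn1, an alpha granule protein that binds factor V, was 5.09 ± 0.77. Both passed the filter on low counts only through HE2 and HP, so their values are descriptions. Nbeal2, which is needed for alpha granules to form, rose by 1.48 ± 0.22 into HE1 (adjusted p = 0.000796, edgeR) and 2.10 ± 0.22 into HE2 (adjusted p = 0.000687). Thbs1, thrombospondin 1, rose into HE1 by 6.46 ± 0.35 (adjusted p = 3.88e-06), and its log2 fold change into HE2 was −0.17 ± 0.27 (adjusted p = 0.675). It had 248 and 262 CPM in ES cells, and other cells are known to make it.

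Of 22 genes for platelet signalling and eicosanoid synthesis, 12 were higher in HE1 than in HB, 13 in HE2 than in HE1 and 20 in HP than in HB, with 0 lower in these comparisons, against 12.7%, 3.26% and 10.1% of all tested genes on the higher side. The medians of the log2 fold change were 1.15, 1.97 and 3.85. Plek, the main protein kinase C substrate of platelets, had 3.97 and 4.56 CPM in HB, 29.9 and 17.1 CPM in HE1, 383 and 538 CPM in HE2, and 699 and 549 CPM in HP. Its rise into HE2 was 4.29 ± 0.29 (adjusted p = 0.000168, edgeR), beside 3.81 ± 0.28 for Pla2g4a, the phospholipase that releases arachidonic acid (adjusted p = 0.00025). Rgs18, a regulator of G protein signalling, and Btk, a kinase downstream of the collagen receptor, had log2 fold changes of 4.93 ± 0.73 and 5.17 ± 0.50 at that step, given as descriptions since both genes passed the filter only through HE2 and HP. Several of these genes also act in other blood cells.

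Of 15 genes of the proplatelet cytoskeleton, 5 rose and 2 fell into HE1 (12.7% and 8.19% of all tested genes), and 4 rose and 0 fell into HE2 (3.26% and 5.39%). The median log2 fold changes were 0.64 and 0.17, against 0.04 and −0.07 over all tested genes. Tubb1, the β1 tubulin of the platelet marginal band, had 0.298 and 0.676 CPM in HB, 2.48 and 1.22 CPM in HE1, 11.6 and 11.9 CPM in HE2, and 27.5 and 19.4 CPM in HP. It rose by 1.88 ± 0.45 (adjusted p = 0.0104, edgeR) and 2.68 ± 0.40 (adjusted p = 0.00417). Was, an actin regulator of blood cells, rose by 1.71 ± 0.44 (adjusted p = 0.0151) and 3.35 ± 0.42 (adjusted p = 0.00177). Pstpip2, an actin-associated adaptor, first fell by 1.20 on the log2 scale into HE1 (adjusted p = 0.00539) and then rose by 1.94 ± 0.25 into HE2 (adjusted p = 0.00204). Dock8, an exchange factor for CDC42, was called from HB to HP, with 2.08 ± 0.21 (adjusted p = 4.65e-05), and at none of the 3 single steps. None of the 103 genes on the 5 lists was called between HE2 and HP.

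**Figure D5:**
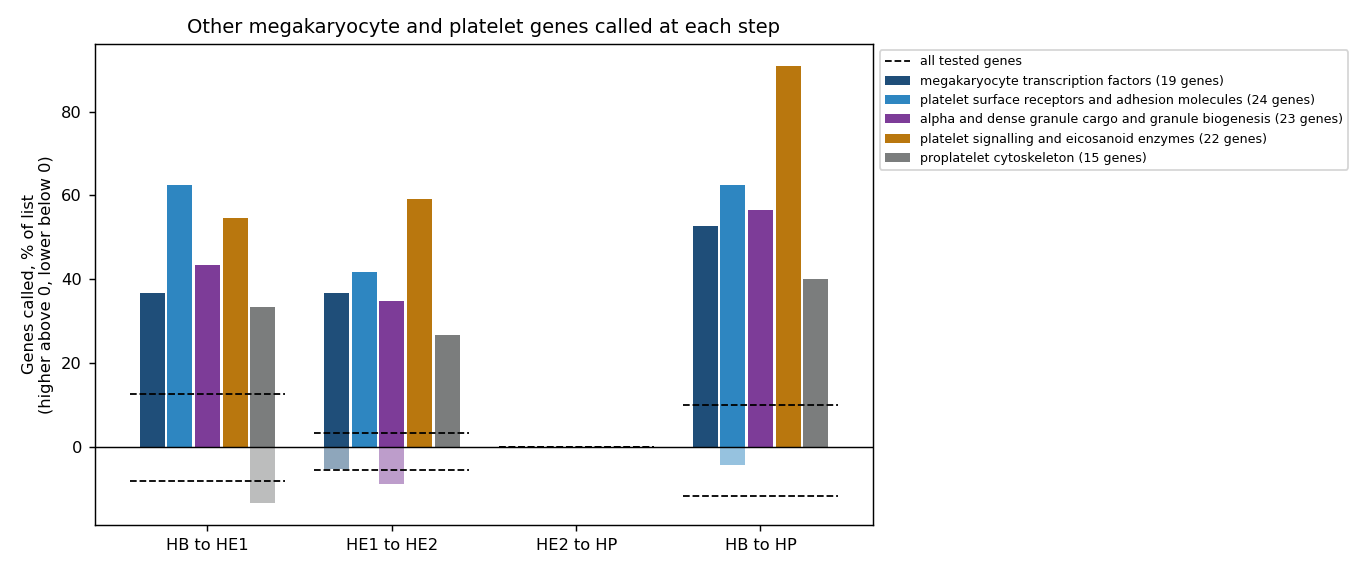
Bars give the share of each of 5 gene lists called as higher (above 0) or lower (below 0) at each comparison on the x axis, in percent, and dashed lines give the same share over all 22596 tested genes. The bars for signalling genes reach 20 of 22 from HB to HP, and there are no bars from HE2 to HP, where the background was also 0.00%.

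The genes whose course was most like that of a member were sought among 12231 other genes with a mean of at least 9 CPM in 1 stage, by Pearson's r of log2 CPM over the 10 libraries. The values describe the order of these libraries, which share stage and depth, and carry no p-value. For Pf4 they included Tmem14c (r = 0.964), Aup1 (0.958), Ndufs8 (0.957) and Epha7 (0.953). As r does not reflect the size of a change, these genes need not rise as much as Pf4. Means in HE1 and HE2 were 46.9 and 67.6 CPM for Aup1 and 21.9 and 34.4 CPM for Ndufs8. Tmem14c, a mitochondrial protein of haem synthesis, had means of 38.5 CPM in HB, 48.6 CPM in HE1, 94.1 CPM in HE2 and 108 CPM in HP. For Vwf they were Tmem43 (0.955), Nid1 (0.923), Prnp (0.916), Sptan1 (0.911) and Fam129b (0.904). Nid1, a basement membrane protein, had means of 302 CPM in ES cells, 117 CPM in HB, 660 CPM in HE1, 254 CPM in HE2 and 120 CPM in HP.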

How the data were processed

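Nuclear RNA-seq libraries from 5 stages of HM-1 cells in serum culture were used, 2 per stage. After alignment to mm10 (Hisat2 v2.2.1), the authors deposited raw counts per gene from featureCounts (v2.0.1, Ensembl release 102). Per the file headers, fragments were counted on exons in the reverse-stranded mode and on every gene they overlap. The authors also deposited 1 averaged expression score per stage for 15686 genes, which was not used for any result. It holds 9 of the 10 members.

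Differences between stages were fitted with edgeR (v4.0.16, filterByExpr, TMM, quasi-likelihood test, stage as the only term, 10 libraries, 5 residual degrees of freedom). Intervals of ratios of counts are exact binomial (95%) and, like the floor of 3 counts (0.0532 to 0.126 CPM), cover counting error only. The script was tested on simulated data. Exon lengths and positions came from the count tables, and symbols from GENCODE M21. Named genes were the members, up to 4 genes per list with the largest change from HB to HP, the lineage genes Itga2b, Itgb3, Gata1, Fli1 and Nfe2, genes that share exons with a member, and the 5 genes most like Pf4 and Vwf, except genes that are not reported here. The members and lists were chosen with earlier results of these data known. The 17 alternatives were limma-voom (v3.58.1), DESeq2 (v1.42.0), total counts, no filter, only the libraries compared, a replicate block, a 4-fold threshold and each library left out.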

Additional observations from a re-analysis of the deposited data

How the results depend on the processing

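With the stage reduced to 1 library, that library was assumed to vary like the others. Leaving out each library in turn, the members higher from HE1 to HE2 numbered 1 to 5 and those lower 0 to 1, the members lower from HE2 to HP 0 to 1, and from HE1 to HP 3 to 7 were higher and 0 to 1 lower. With a threshold of 4-fold, 4 were higher and 0 lower from HE1 to HP. There were also 0 lower from HE1 to HP with limma-voom and with total counts, and without the filter 1 member, Vwf, was lower from HE2 to HP. The other counts of members stayed within 1.5 times of those reported.

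Changes that were not called also turned in sign. From HE2 to HP, Pf4 changed by −0.52 with limma-voom on the log2 scale, and Gp1ba by 0.02 and Rab27b by 0.01 with total counts. Leaving out each library, the changes from HE2 to HP ran from −2.27 to 0.85 for Pf4, −1.65 to 0.23 for Vwf, −0.19 to 0.11 for Gp1ba, −0.21 to 0.80 for Gp6, −0.17 to 1.43 for Treml1 and −0.34 to 0.31 for Rab27b. From HB to HE1 they ran from −2.43 to 2.64 for Pf4 and from −0.28 to 1.06 for Gp1bb. Vwf ran from −1.56 to 0.33 from HE1 to HE2 and from −0.09 to 1.80 from HB to HE2. The cause was not tested.

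The replicate numbers were not taken as pairing the libraries, as the correlation of their deviations between stages lay between −0.316 and 0.213. With a replicate block, Pf4 changed by −0.45 from HE2 to HP, 6 in place of 7 members were higher from HE1 to HP (Gp1bb had an adjusted p of 0.0593, edgeR), and the other counts of members were as reported.

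Depth limits Ppbp, Gp6, Pf4, Gp9 and Treml1, whose counts before HE2 were at most 4 in a library.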
